A study of Homo sapiens with 9 samples.

Results

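The genes described here are 9 antioxidant and iron-handling genes widely known as targets of the transcription factor NRF2. They are the cystine transporter subunit SLC7A11, both subunits of the first enzyme of glutathione synthesis (GCLC and GCLM), the thioredoxin genes TXN, TXNRD1 and SRXN1, the heme and quinone enzymes HMOX1 and NQO1, and the ferritin heavy chain FTH1. They were chosen by name, not by a measured value, though with earlier results of these data known. They make up 9 of the 30017 genes in the count table. All 9 were detected well enough to be tested. RNA-seq was performed on MOLM13, a human acute myeloid leukemia cell line, after knockdown of the RNA helicase DDX41, and the question was how the transcriptome responds to its loss. The cells were transduced with a GFP-marked pLKO lentivirus carrying sh-Control, shDDX41 #1 or shDDX41 #2, and GFP-positive cells were sorted on day 4. Each of the 3 groups has 3 libraries, labelled with the letters A, B and D. The methods of the study describe quantified assays in general as done on biological replicates, but the labels do not state whether libraries of a group came from separate transductions. If they did not, p-values measure only the spread between these libraries, which may be technical.

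NRF2, encoded by NFE2L2, is held at a low level in unstressed cells because KEAP1 and the CUL3 ubiquitin ligase mark it for degradation. Oxidants and electrophiles block that step, and NRF2 then binds antioxidant response elements together with a small MAF protein, at sites that BACH1 can occupy as a repressor. Its activity is therefore mainly set by the amount of protein, which RNA-seq does not measure. Several of its targets have other regulators too. SLC7A11 is also driven by the amino acid stress factor ATF4, HMOX1 by heme, and the ferritin chains are controlled by iron, largely at translation.

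To show the element in question, the core letters TGACNNNGC, where N is any base, were searched on both strands of RefSeq promoters (GRCh38.p14, 250 bases before to 50 after a start site). They occurred in 13.3% of the 35116 promoters, where a gene may have several. Of the members, 6 had a promoter entry (GCLM, GCLC, TXN, TXNRD1, NQO1 and SRXN1), while HMOX1, SLC7A11 and FTH1 had none. A match was found in 2 of those 6, GCLM and TXNRD1, the second of which has a pair of promoter entries, each with a match. Of the 4 without a match, SRXN1 was called lower with shDDX41 #1, as were GCLM and TXNRD1. The stricter form TGACTCAGC, whose matches are a subset of those of the core, was found in 0.561% of all promoters, and TGATGNAA, the core of the element bound by ATF4 dimers, in 3.62%. Neither was found in a member's promoter. The stretches with a match to the core follow, 5′ to 3′ on the strand of the gene, with the match in capitals.
GCLM, chr1:93909456-93909555, minus strand, positions -125 to -26 from the start site: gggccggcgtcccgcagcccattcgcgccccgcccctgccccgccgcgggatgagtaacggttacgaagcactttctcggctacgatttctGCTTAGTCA
TXNRD1 first start site, chr12:104215670-104215779, plus strand, positions -109 to 1: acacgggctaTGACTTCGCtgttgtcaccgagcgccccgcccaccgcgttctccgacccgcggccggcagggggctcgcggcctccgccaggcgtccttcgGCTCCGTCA
TXNRD1 second start site, chr12:104286839-104286938, plus strand, positions -193 to -94: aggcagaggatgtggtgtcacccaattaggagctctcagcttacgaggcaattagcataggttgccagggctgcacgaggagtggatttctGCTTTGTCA
In GCLM the match lies on the opposite strand, where it reads TGACTAAGC. TXNRD1 holds 1 match on its own strand and 2 on the opposite strand, which read TGACGGAGC and TGACAAAGC. A match is only a run of letters and shows no binding, and the absence of a match in these windows says nothing about a gene's regulation.

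The libraries held 16385238 to 20510032 counts. Values below are CPM, the counts per 1e+06 counts of a library after TMM scaling, which aligns the bulk of genes between libraries, with the SD over 3 libraries, and log2 fold changes with their SE come from edgeR's quasi-likelihood test on all genes, with Benjamini-Hochberg adjusted p-values called at 0.05. DDX41 itself measured 117, 115 and 113 CPM with sh-Control, 12.2, 12.9 and 9.95 with shDDX41 #1, and 38.9, 39.9 and 42.5 with shDDX41 #2. DDX41 was thus lower in every library labelled as a knockdown, and its remaining level with shDDX41 #1 was lower than with shDDX41 #2 (log2 fold change -1.79, SE 0.0896, adjusted p = 2.22e-09). Library D of shDDX41 #1 stood apart from A and B of its group, with a chi-square per degree of freedom of 17.9 and 19.6 against 2.47 to 10.4 for the pairs of the other groups, and the members whose call turns on it are given with and without it. MOLM13 carried the myeloid genes SPI1, CEBPA, CD33 and FLT3, whereas the monocyte marker CD14 averaged only 0.0727 CPM with sh-Control. HBA1, HBA2 and HBB, the globin genes of erythroid cells, were at 0 in all groups, as were CDH1 and KRT19 of epithelial cells and MS4A1 of B cells. Other markers of those lists were present. The lymphoid marker NKG7 averaged 20.3 CPM with sh-Control, the epithelial marker KRT18 15.5 and the erythroid marker EPOR 13.2.

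Against sh-Control, members were called in both directions, as were all genes. With shDDX41 #1, 5 of 9 were called, 4 lower (SLC7A11, GCLM, TXNRD1 and SRXN1) and 1 higher (FTH1). The 4 lower calls held in all 18 alternative settings, and the FTH1 call in 10 of 18. Across all genes tested in that comparison 47.8% were called, 24.1% lower and 23.7% higher, so the share of members called is near the background. The libraries did not overlap for 4 members, against 53.1% of all genes. With shDDX41 #2, 3 of 9 were called, SRXN1 lower and NQO1 and FTH1 higher, against 25% of all genes called, 11.6% higher and 13.4% lower. Here too 4 members did not overlap, against 43.8% of all genes. Between the hairpins, 4 of 9 were called, and SLC7A11, GCLM, TXNRD1 and NQO1 were all lower with shDDX41 #1, against 48.8% of all genes called and 24.2% called lower. The libraries of the hairpins did not overlap for 5 members, against 57.7% of all genes. The median log2 fold change of the 9 members was -0.21 with shDDX41 #1 and -0.03 with shDDX41 #2, beside 0.01 and -0.01 over all genes tested. SRXN1 was called lower and FTH1 higher with both hairpins, and HMOX1, GCLC and TXN were called with neither. Both comparisons use the same sh-Control libraries, so their values are not independent of each other.

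**Figure D1:**
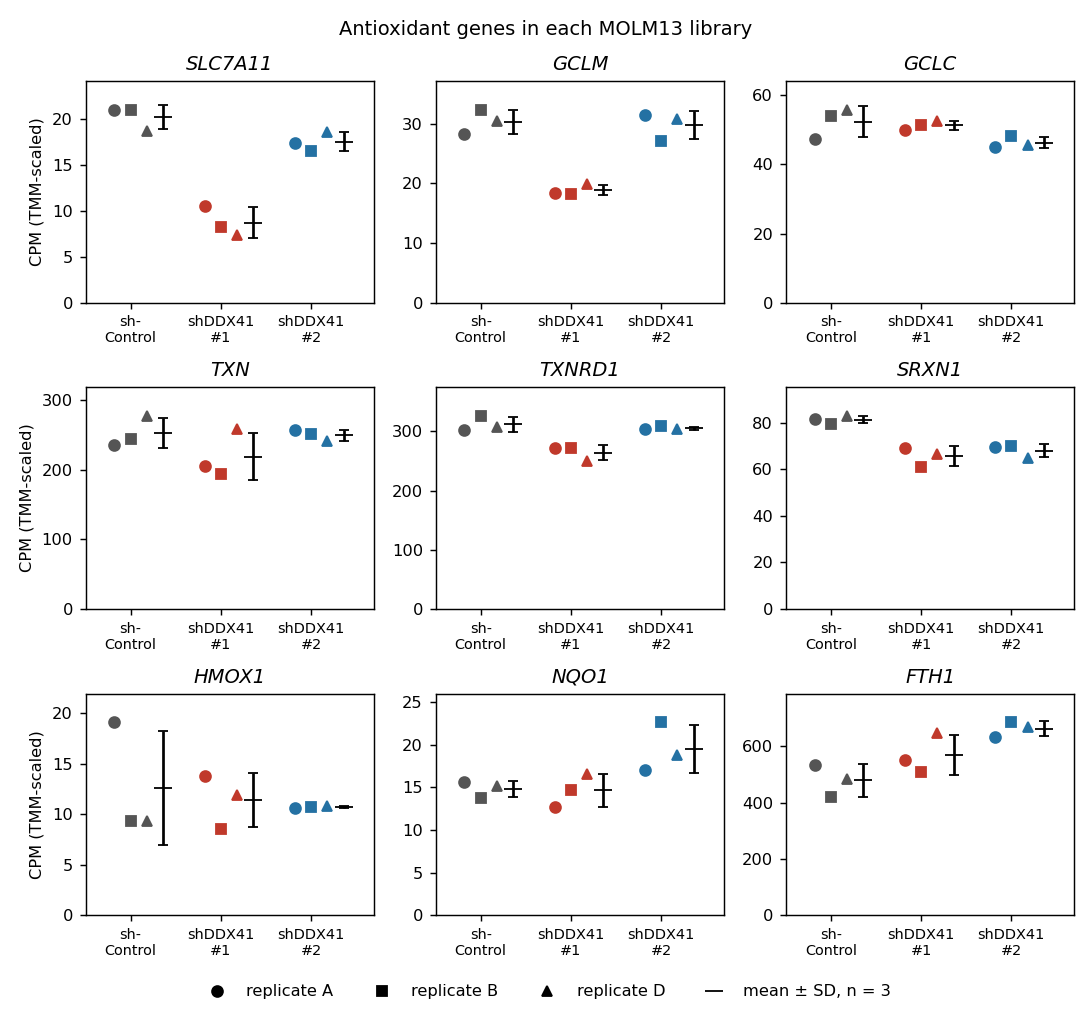
TMM-scaled level (CPM) of the 9 genes in each MOLM13 library, 1 panel per gene, with a vertical axis that starts at 0. Circles, squares and triangles are replicates A, B and D, and the bars give the mean and SD of 3 libraries. SLC7A11 and GCLM lie apart from both other groups with shDDX41 #1, while HMOX1 varies most within sh-Control, where library A measured 19.1 CPM.

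Glutathione synthesis starts with cystine, which enters the cell through the exchanger formed by SLC7A11 (chr4:138164097-138242349, minus strand, hg38) and its partner chain SLC3A2. SLC7A11 showed the largest change of the members. It measured 21.0, 21.0 and 18.7 CPM with sh-Control, 10.5, 8.26 and 7.34 with shDDX41 #1, and 17.4, 16.6 and 18.6 with shDDX41 #2. All libraries of shDDX41 #1 were below all others, and those of shDDX41 #2 lay just below sh-Control. SLC7A11 fell by 56.9% with shDDX41 #1 (log2 fold change -1.21, SE 0.126, adjusted p = 2.01e-06, edgeR). With shDDX41 #2 the log2 fold change was -0.21 and not called (95% interval -0.46 to 0.04, adjusted p = 0.214, edgeR). The difference between the hairpins was itself called (log2 fold change -1.01, SE 0.127, adjusted p = 1.32e-05, edgeR). SLC3A2, which is also the shared chain of several other amino acid transporters, followed another pattern. It measured 190, 185 and 206 CPM with sh-Control, 198, 199 and 197 with shDDX41 #1, and 134, 134 and 135 with shDDX41 #2. It fell with shDDX41 #2 (log2 fold change -0.53, SE 0.0608, adjusted p = 2.45e-05, edgeR), while with shDDX41 #1 the log2 fold change was 0.03 and not called. The transporter's chains were thus called lower with different hairpins, and both differences between the hairpins were called. A smaller fall of SLC7A11 with shDDX41 #2 is not excluded.

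Glutamate-cysteine ligase, the rate-limiting enzyme of glutathione synthesis, consists of a catalytic subunit (GCLC, chr6:53497341-53616970, minus strand) and a modifier subunit (GCLM, chr1:93885205-93909456, minus strand) that raises its activity. GCLM measured 28.3, 32.3 and 30.4 CPM with sh-Control, 18.4, 18.3 and 19.8 with shDDX41 #1, and 31.6, 27.1 and 30.8 with shDDX41 #2. Every shDDX41 #1 library lay below all 6 others, whereas shDDX41 #2 overlapped sh-Control. GCLM fell by 37.9% with shDDX41 #1 (log2 fold change -0.69, SE 0.0896, adjusted p = 1.98e-05, edgeR), and the log2 fold change with shDDX41 #2 was -0.03 (95% interval -0.21 to 0.16, adjusted p = 0.858, edgeR). Between the hairpins GCLM differed by -0.66 (SE 0.0897, adjusted p = 2.62e-05, edgeR). GCLC, the catalytic subunit, measured 47.2, 54.1 and 55.8 CPM with sh-Control, 49.8, 51.5 and 52.5 with shDDX41 #1, and 45.1, 48.1 and 45.8 with shDDX41 #2. Its shDDX41 #1 libraries lay inside the range of sh-Control. GCLC was not called in any comparison, with log2 fold changes of -0.03 (95% interval -0.19 to 0.13) and -0.18 (95% interval -0.33 to -0.02, adjusted p = 0.0928, edgeR) for shDDX41 #1 and #2. The second value was called without sh-Control library A, at -0.25 (adjusted p = 0.0217, edgeR), with adjusted p from 0.0217 to 0.282 over its alternatives. With shDDX41 #1, the modifier subunit fell and the interval of the catalytic subunit excluded a fall of that size.

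The thioredoxin branch reduces oxidized proteins. Thioredoxin (TXN, chr9:110243811-110256640, minus strand) carries the electrons, thioredoxin reductase (TXNRD1, chr12:104215779-104350305, plus strand) recharges it from NADPH, and sulfiredoxin (SRXN1, chr20:646615-653370, minus strand) repairs overoxidized peroxiredoxins. SRXN1 measured 81.5, 79.6 and 82.8 CPM with sh-Control, 69.1, 60.8 and 66.6 with shDDX41 #1, and 69.5, 69.9 and 64.7 with shDDX41 #2. Both knockdown groups lay below all sh-Control libraries and overlapped each other. SRXN1 fell by 19.4% with shDDX41 #1 (log2 fold change -0.31, SE 0.0676, adjusted p = 0.00150, edgeR) and by 16.3% with shDDX41 #2 (log2 fold change -0.26, SE 0.0672, adjusted p = 0.0117, edgeR), and between the hairpins the log2 fold change was -0.05 (95% interval -0.20 to 0.09). Without shDDX41 #2 library D the call for shDDX41 #2 was lost (-0.22, adjusted p = 0.0670, edgeR), with adjusted p from 0.00468 to 0.0670 over its alternatives. In the GENCODE v29 annotation, 85% of the exon bases of SRXN1 are shared with AL121758.1, a protein-coding gene on the same strand, so its level depends on how shared reads were assigned.

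TXNRD1 measured 302, 326 and 307 CPM with sh-Control, 271, 271 and 250 with shDDX41 #1, and 304, 308 and 304 with shDDX41 #2. The shDDX41 #1 libraries were again the 3 lowest. TXNRD1 fell by 15.3% with shDDX41 #1 (log2 fold change -0.24, SE 0.0605, adjusted p = 0.00444, edgeR), the value with shDDX41 #2 was -0.03 (95% interval -0.16 to 0.10), and the difference between the hairpins was called (-0.21, SE 0.0605, adjusted p = 0.00969, edgeR). TXN, the substrate of TXNRD1, measured 236, 244 and 277 CPM with sh-Control, 205, 194 and 258 with shDDX41 #1, and 256, 251 and 240 with shDDX41 #2. Libraries A and B of shDDX41 #1 were the lowest, and library D lay within sh-Control. The log2 fold change of TXN with shDDX41 #1 was -0.21 and not called (SE 0.0940, adjusted p = 0.0837, edgeR). Without library D it was -0.33 and called (adjusted p = 0.000558, edgeR), and over all alternatives the adjusted p ranged from 0.000558 to 0.322. With shDDX41 #2 it was -0.02 (95% interval -0.22 to 0.18). Between the hairpins it was -0.19 and not called (adjusted p = 0.109, edgeR), but -0.32 and called without library D of shDDX41 #1 (adjusted p = 0.000651, edgeR), with adjusted p from 0.000651 to 0.355 over its alternatives.

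HMOX1 (chr22:35380361-35394214, plus strand) encodes heme oxygenase-1, which breaks heme into biliverdin, carbon monoxide and iron and is among the most inducible of the NRF2 targets in many cells. It measured 19.1, 9.35 and 9.37 CPM with sh-Control, 13.8, 8.56 and 11.9 with shDDX41 #1, and 10.6, 10.7 and 10.8 with shDDX41 #2. The sh-Control library A was far above the other libraries of its group, and all 3 groups overlapped. No comparison called HMOX1, with log2 fold changes of -0.14 (95% interval -0.64 to 0.35, adjusted p = 0.641, edgeR) with shDDX41 #1 and -0.24 (95% interval -0.73 to 0.26, adjusted p = 0.492, edgeR) with shDDX41 #2. Both turned positive without sh-Control library A, at 0.28 and 0.19 and still not called, so these data give no direction for HMOX1. The intervals would cover a change of up to a log2 fold of 0.73 in size.

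NQO1 (chr16:69706996-69726951, minus strand), a quinone reductase often used as a readout of NRF2 activity, measured 15.6, 13.8 and 15.1 CPM with sh-Control, 12.7, 14.7 and 16.6 with shDDX41 #1, and 17.0, 22.6 and 18.8 with shDDX41 #2. All shDDX41 #2 libraries lay above the 6 others. NQO1 rose by 31.6% with shDDX41 #2 (log2 fold change 0.40, SE 0.124, adjusted p = 0.0292, edgeR), and with shDDX41 #1 its log2 fold change was -0.02 (95% interval -0.29 to 0.26). The hairpins differed by -0.41 (SE 0.125, adjusted p = 0.0131, edgeR). The call against sh-Control was lost without sh-Control library B (0.35, adjusted p = 0.0932), without sh-Control library D (0.41, adjusted p = 0.0575), without shDDX41 #2 library B (0.27, adjusted p = 0.171) and without shDDX41 #2 library D (0.42, adjusted p = 0.0615), and that between the hairpins without shDDX41 #1 library A (-0.32, adjusted p = 0.0627) and without shDDX41 #2 library B (-0.29, adjusted p = 0.0908), all by edgeR. Over the alternatives the adjusted p ranged from 0.00793 to 0.171 for the first and from 0.00270 to 0.0908 for the second.

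FTH1 (chr11:61959718-61967660, minus strand) encodes the ferritin heavy chain, whose ferroxidase activity lets ferritin store iron. It measured 533, 419 and 484 CPM with sh-Control, 550, 508 and 647 with shDDX41 #1, and 634, 684 and 669 with shDDX41 #2. The shDDX41 #2 libraries lay above all sh-Control libraries, while the lowest library of shDDX41 #1 was below the highest of sh-Control. FTH1 rose by 38.4% with shDDX41 #2 (log2 fold change 0.47, SE 0.0943, adjusted p = 0.00226, edgeR) and by 18.8% with shDDX41 #1 (log2 fold change 0.25, SE 0.0942, adjusted p = 0.0405, edgeR). The first call held in all 18 alternatives, and the second in 10 of 18. It was lost without any 1 of 7 libraries, with log2 fold changes down to 0.16 without library D of shDDX41 #1 (adjusted p = 0.114) and 0.16 without sh-Control library B (adjusted p = 0.183), and its adjusted p ranged from 0.00710 to 0.183. The difference between the hairpins was -0.22 and not called (95% interval -0.42 to -0.02, adjusted p = 0.0649, edgeR), but it was called in 7 of 18 alternatives, among them without library D of shDDX41 #1 (-0.32, adjusted p = 0.00266, edgeR). FTL, the light chain of ferritin, measured 2477, 2083 and 2453 CPM with sh-Control, 2045, 2143 and 2312 with shDDX41 #1, and 2211, 2380 and 2240 with shDDX41 #2. The groups overlapped, and FTL was not called with either hairpin (-0.11 and -0.04). In GENCODE v29, 62.4% of the exon bases of FTH1 overlap BEST1 on the opposite strand. BEST1 was low, at 1.58 CPM on average with sh-Control and 2.24 with shDDX41 #2. FTH1 also has 25 pseudogenes by symbol, of which 2 are in the table, and how reads shared with them were counted is not given in the sources used here.

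**Figure D2:**
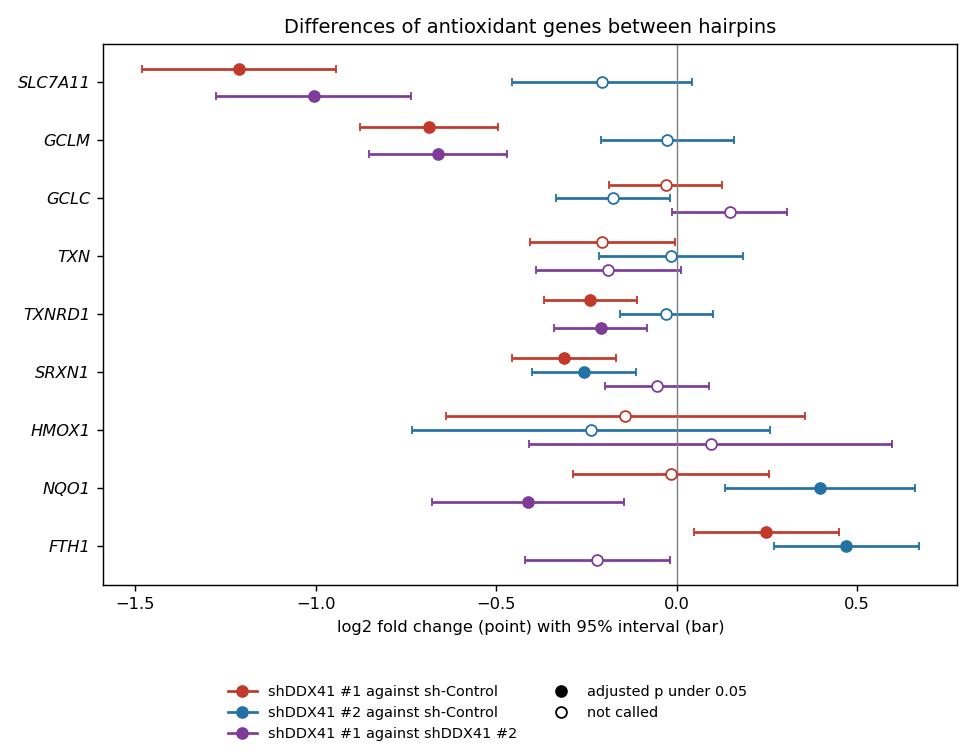
log2 fold changes of the 9 genes from edgeR (points, horizontal axis) with 95% intervals (bars) for each hairpin against sh-Control (red, #1, and blue, #2) and for the first hairpin against the second (purple). Filled points were called at an adjusted p under 0.05, and the intervals of SLC7A11 and GCLM with shDDX41 #1 lie far from 0 while those of HMOX1 span it in every comparison.

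The groups of cells also differed in single myeloid genes. The summed level of 10 myeloid markers, 9 of them at 1 CPM or more, was 2459 to 2650 CPM with sh-Control, 2513 to 2618 with shDDX41 #1 and 3388 to 3449 with shDDX41 #2, the group in which NQO1 and FTH1 were highest. That rise was carried by LYZ, and the other 9 markers summed to 1567 to 1663, 1662 to 1704 and 1555 to 1640 CPM, in ranges that overlap between sh-Control and shDDX41 #2. LYZ, the lysozyme of granulocytes and monocytes, rose with shDDX41 #2 (log2 fold change 0.96, adjusted p = 1.63e-07, edgeR), as did the granule enzyme MPO (0.59, adjusted p = 2.81e-05) the integrin ITGAM (0.52, adjusted p = 0.00175) and the phosphatase PTPRC (0.18, adjusted p = 0.0385). These were 4 of the 9 markers tested, 5 were not called, and the median was -0.04, beside 25% of all genes called. With shDDX41 #1, 3 of the 9 were called (33.3%), with a median of -0.00, beside 47.8% of all genes called. The surface receptors CD33 (0.25) and FLT3 (0.20) rose, and CSF1R, a receptor of the monocyte lineage, fell by 0.86 on the log2 scale (adjusted p = 3.79e-05, edgeR). FLT3 was not called without sh-Control library B (adjusted p = 0.0748) or shDDX41 #1 library B (adjusted p = 0.0878), nor PTPRC without any 1 of the 6 libraries compared (adjusted p up to 0.163). The part of these differences in the results for NQO1 and FTH1 was not tested. The 6 lymphoid markers summed to 20.8 to 24.3 CPM with sh-Control, 12.96 to 18.1 with shDDX41 #1 and 25.3 to 27.4 with shDDX41 #2, mostly from NKG7. The 6 erythroid markers summed to 12.8 to 13.5, 10.5 to 13.5 and 11.2 to 13.5 CPM, almost all from EPOR, and the 5 epithelial markers to 14.7 to 19.4, 16.5 to 17.8 and at most 19.1 CPM, mostly from KRT18. In bulk RNA, fewer cells with a transcript and less of it per cell cannot be told apart.

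The members span a wide range of levels. Per kilobase of exon in GENCODE v29, sh-Control cells held 236 ± 28.3 CPM per kb of FTH1 and 221 ± 19.0 of TXN (SD, n = 3), whose libraries overlapped. TXNRD1 followed with 46.5 ± 1.84 CPM per kb and SRXN1 with 30.1 ± 0.597, each apart from its neighbours. GCLC at 6.06 ± 0.522, GCLM at 5.60 ± 0.377, HMOX1 at 5.24 ± 2.34 and NQO1 at 4.56 ± 0.293 CPM per kb each overlapped the next in this order. SLC7A11 was the lowest at 2.10 ± 0.137 CPM per kb and fell to 0.904 ± 0.171 with shDDX41 #1. These lengths join all annotated exons of a gene, so a gene with long rarely used exons appears too low. Within groups, HMOX1 had the widest spread with sh-Control, a coefficient of variation of 44.6%.

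Across the 9 libraries, the pair of members with the most similar profile was TXNRD1 and SRXN1, with a root mean square difference of 0.124 between their centred log2 CPM values. The least alike were SLC7A11 and FTH1, at 0.636. Among all tested genes, the profile closest to that of SLC7A11 was E2F8, a cell cycle repressor of the E2F family (0.112), followed by ABI2, an actin regulator (0.126). GCLM was closest to ENOPH1, an enzyme of methionine salvage (0.0613), and RNF13, a ubiquitin ligase (0.0627). FTH1 was closest to NPC2, a cholesterol carrier of the lysosome (0.0541), and GLTP, a glycolipid transfer protein (0.0598). These distances are not scaled for how much a gene varies, so genes that vary little lie close to each other. SRXN1 was called lower with both hairpins, for example, but TXNRD1 with shDDX41 #1 only. The distances describe 9 libraries in 3 groups and carry no test.

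The regulators of the pathway were examined next. NFE2L2, which encodes NRF2, measured 176, 175 and 171 CPM with sh-Control, 162, 153 and 169 with shDDX41 #1, and 183, 165 and 172 with shDDX41 #2. All shDDX41 #1 libraries lay slightly below sh-Control, but the log2 fold change of -0.11 was not called (SE 0.0637, adjusted p = 0.168, edgeR), and with shDDX41 #2 it was -0.00 (adjusted p = 0.977). KEAP1, its inhibitor, had log2 fold changes of 0.10 and -0.04, and BACH1, the repressor at the same sites, of 0.09 and 0.09 with shDDX41 #1 and #2, none of them called. Upper quartile scaling called KEAP1 (0.17, adjusted p = 0.0339) and the small MAF gene MAFK (0.22, adjusted p = 0.0452) with shDDX41 #1. Of the small MAF partners, MAFG fell with shDDX41 #1 (-0.26, SE 0.0667, adjusted p = 0.00429, edgeR), while MAFK (0.15) and MAFF (0.13) were not called, and with shDDX41 #2 none of the 3 was called. SQSTM1, the autophagy receptor that binds KEAP1 and is itself an NRF2 target, measured 209, 163 and 169 CPM with sh-Control, 130, 116 and 127 with shDDX41 #1, and 165, 164 and 164 with shDDX41 #2. It fell with shDDX41 #1 (-0.53, SE 0.0852, adjusted p = 0.000123, edgeR), with shDDX41 #2 the value was -0.13 and not called (adjusted p = 0.270), and the difference between the hairpins was called (-0.40, adjusted p = 0.00125). Of the 15 regulators tested out of 16 listed, 4 were called with shDDX41 #1 (26.7%, against 47.8% of all genes), 1 higher and 3 lower. With shDDX41 #2, 2 were called (13.3%, against 25% of all genes), 1 in each direction. Those not yet named, which were singled out after their values were seen, were NFE2L1, a relative of NFE2L2 (0.27), and the ligase scaffold CUL3 (-0.28) with shDDX41 #1, and the KEAP1-binding proteins DPP3 (0.38) and PGAM5 (-0.42) with shDDX41 #2. The median over the tested regulators was 0.05 with shDDX41 #1 and -0.04 with shDDX41 #2.

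Over the 5 lists of other pathway genes, 111 of 128 listed genes could be tested, of which 44 were called with shDDX41 #1 (21 higher, 23 lower), 24 with shDDX41 #2 (13 higher, 11 lower) and 46 between the hairpins (23 in each direction). These are 39.6%, 21.6% and 41.4% of those tested, below the 47.8%, 25% and 48.8% of all genes. Scaling by upper quartiles in place of TMM moved the shDDX41 #1 calls to 28 higher and 15 lower, and those of all genes from 49.5% to 61.1% higher. Over all genes, DESeq2 size factors gave 49.8% higher and library size alone 47.6%. The balance of directions with shDDX41 #1 thus depends on whether upper quartile scaling is used, and which scaling is right was not tested.

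Other NRF2 targets moved both ways. Of 23 tested, 5 rose and 5 fell with shDDX41 #1, and 2 rose and 1 fell with shDDX41 #2, with medians of -0.11 and -0.04. The shares called were 43.5% and 13%, beside 47.8% and 25% of all genes. TRIM16, a ubiquitin ligase of the antioxidant response, measured 54.3, 44.0 and 49.98 CPM with sh-Control, 124, 118 and 113 with shDDX41 #1, and 41.6, 45.7 and 42.3 with shDDX41 #2, and rose with shDDX41 #1 alone (1.26, SE 0.0793, adjusted p = 1.62e-08, edgeR), the difference between the hairpins being 1.45 (adjusted p = 5.35e-09). Its near copy TRIM16L rose too (0.74), and reads of the pair can be hard to assign. ABCC4, an exporter of organic anions, and the epoxide hydrolase EPHX1 fell with shDDX41 #1 (-0.50 and -0.35). With shDDX41 #2 the largest rise was that of the carboxylesterase CES1, from 154, 149 and 161 CPM with sh-Control to 303, 314 and 282 (0.96, SE 0.0640, adjusted p = 1.32e-07, edgeR). CES1 is a gene of monocytes and macrophages as well as liver, and it has a near-identical pseudogene. The lipase ABHD4 rose (0.55, adjusted p = 0.0112) and the carbonyl reductase CBR1 fell with shDDX41 #2 (-0.22, adjusted p = 0.0497, edgeR). The first call was lost without shDDX41 #2 library B (0.47, adjusted p = 0.0608), and the second in most alternatives, with -0.17 and an adjusted p of 0.193 without shDDX41 #2 library A. ABHD4 was also called higher with shDDX41 #1 (0.45, adjusted p = 0.0172, edgeR). That call was lost without sh-Control library D (0.37, adjusted p = 0.0727) and without shDDX41 #1 library A (0.31, adjusted p = 0.103).

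Among 26 other glutathione genes, 2 rose and 7 fell with shDDX41 #1, and 1 rose and 3 fell with shDDX41 #2, with medians of -0.08 and -0.04. The shares called were 34.6% and 15.4%, beside 47.8% and 25% of all genes. Both enzymes that break glutathione down in the cytosol were lower with shDDX41 #1, CHAC2 (-0.68, adjusted p = 0.00127) and CHAC1 (-0.49, adjusted p = 0.000944). CHAC1, a target of ATF4, measured 41.4, 32.8 and 37.4 CPM with sh-Control, 29.6, 23.8 and 26.2 with shDDX41 #1, and 21.2, 20.0 and 21.7 with shDDX41 #2, and fell further with shDDX41 #2 (-0.83, SE 0.1004, adjusted p = 3.75e-05, edgeR). The order of CHAC1 across the hairpins was thus the reverse of that of SLC7A11, and its difference between them was called (0.34, adjusted p = 0.0128), although not without shDDX41 #1 library A (0.25, adjusted p = 0.0797) or shDDX41 #2 library B (0.31, adjusted p = 0.0575). The oxoprolinase OPLAH (0.70) and the glutathione peroxidase GPX1 (0.37, adjusted p = 0.0102) rose with shDDX41 #1. GPX1 was 0.23 and called without library D of shDDX41 #1 (adjusted p = 0.0211), and 0.28 and not called without sh-Control library B (adjusted p = 0.0534). With shDDX41 #2 the mitochondrial glutaredoxin GLRX2 fell (-0.77) and the transferase GSTZ1 rose (0.33, adjusted p = 0.0408), a call that was lost without any 1 of the 6 libraries compared (adjusted p up to 0.138).

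In the list of 21 other thioredoxin and peroxide genes, 4 rose and 4 fell with shDDX41 #1, and 6 rose and 2 fell with shDDX41 #2, with medians of 0.02 and 0.09. The share called was 38.1% with each hairpin, beside 47.8% and 25% of all genes. SOD2, the superoxide dismutase of mitochondria, measured 106, 107 and 106 CPM with sh-Control, 75.1, 76.6 and 80.9 with shDDX41 #1, and 74.9, 77.2 and 76.4 with shDDX41 #2, a fall with both (-0.46 and -0.48). MSRB1, a selenoprotein that repairs oxidized methionine, rose with both (0.67 and 0.74), and MSRB3 rose with shDDX41 #2 (0.53). The sestrins, stress-induced regulators of growth signalling, did not move as a family. SESN1 rose with shDDX41 #1 (0.94, SE 0.0914, adjusted p = 1.04e-06, edgeR) and less with shDDX41 #2 (0.36, adjusted p = 0.0101), a difference that was called (0.58, adjusted p = 9.12e-05). The call with shDDX41 #2 was lost without library D of that group (0.30, adjusted p = 0.0621). SESN3 fell with shDDX41 #1 (-0.78), and SESN2 fell with shDDX41 #2 (-0.44).

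**Figure D3:**
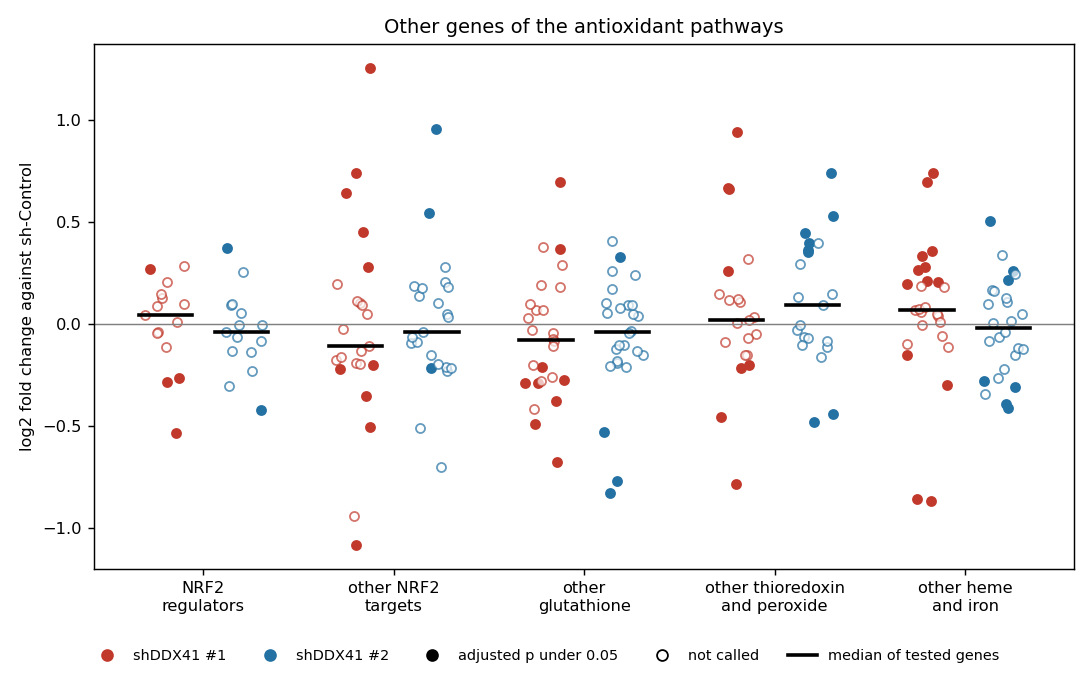
log2 fold changes against sh-Control (vertical axis, edgeR) of the tested genes of 5 lists, 1 point per gene, red for shDDX41 #1 and blue for shDDX41 #2. Filled points were called, black lines are list medians, and calls lie on both sides of 0 in every list for both hairpins.

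Heme and iron genes were read beside HMOX1 and FTH1. Of 26 tested, 9 rose and 4 fell with shDDX41 #1, and 3 rose and 4 fell with shDDX41 #2, with medians of 0.07 and -0.02. The shares called were 50% and 26.9%, beside 47.8% and 25% of all genes. TFRC, the transferrin receptor through which cells take up iron, measured 616, 636 and 626 CPM with sh-Control, 364, 373 and 299 with shDDX41 #1, and 510, 534 and 474 with shDDX41 #2. The 3 groups did not overlap. TFRC fell with shDDX41 #1 (-0.86, SE 0.0806, adjusted p = 7.49e-07, edgeR) and with shDDX41 #2 (-0.31, SE 0.0798, adjusted p = 0.0114, edgeR), and the hairpins differed (-0.55, adjusted p = 4.96e-05). Without shDDX41 #2 library D the fall with that hairpin was not called (-0.26, adjusted p = 0.0667). SLC39A14, a transporter of iron not bound to transferrin, followed the same order, with falls of -0.87 (adjusted p = 5.39e-07) and -0.41 (adjusted p = 0.00140) and a difference of -0.45 (adjusted p = 0.000244). NCOA4, the receptor that delivers ferritin to lysosomes, measured 348, 377 and 390 CPM with sh-Control, 473, 468 and 493 with shDDX41 #1, and 502, 549 and 533 with shDDX41 #2. It rose with both hairpins (0.36 and 0.51). The biliverdin reductase B gene BLVRB and the heme carrier FLVCR2 rose with shDDX41 #1 (0.74 and 0.70), with called differences between the hairpins (0.64 and 0.76). UROS, an enzyme of heme synthesis, rose with both hairpins (0.27 and 0.26), and the heme exporter FLVCR1 fell with shDDX41 #2 (-0.39, adjusted p = 0.0349, edgeR). Leaving out single libraries of sh-Control or shDDX41 #2 ended the calls with shDDX41 #2 of UROS (adjusted p up to 0.0850, without shDDX41 #2 library B) and FLVCR1 (adjusted p up to 0.145, without shDDX41 #2 library D). TFRC and SLC39A14 are named here because they had the largest called falls of the list with shDDX41 #1. NCOA4 is named because it had the largest called rise with shDDX41 #2. Genes picked in this way do not stand for iron handling as a whole, and iron itself was not measured. SLC11A2, another iron importer, was not called (-0.06 and -0.22).

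**Figure D4:**
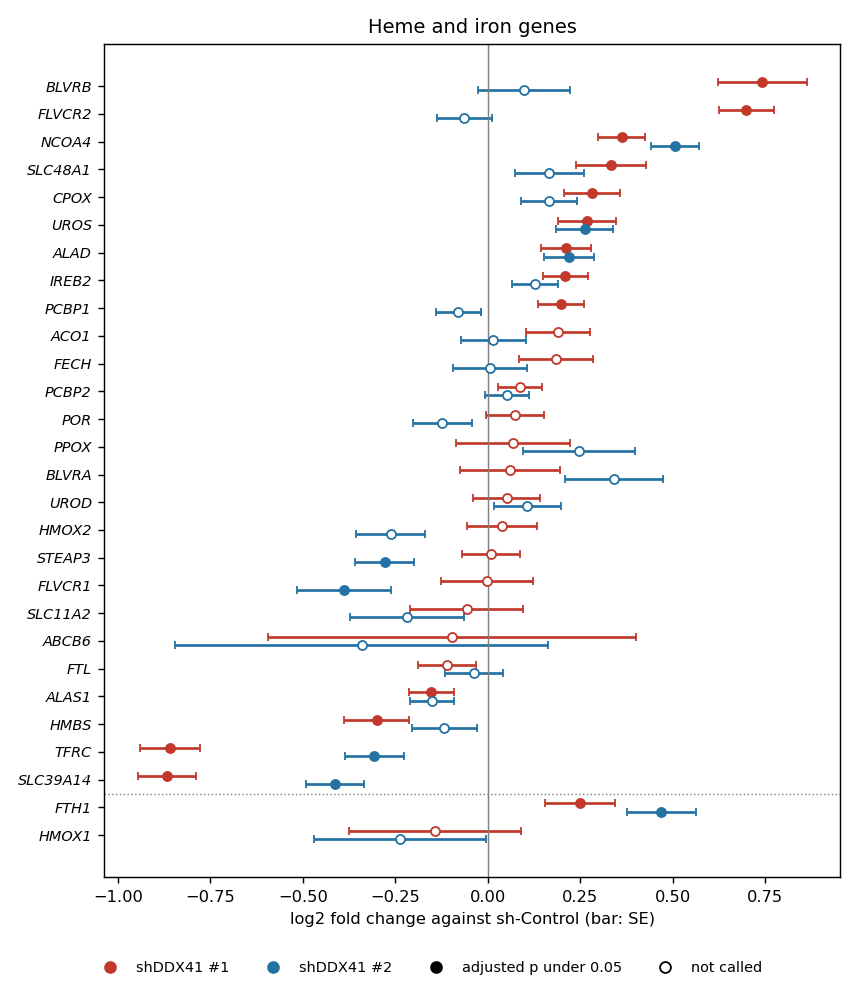
log2 fold changes against sh-Control (horizontal axis, edgeR, bars SE) of the 26 tested heme and iron genes, ordered by their value with shDDX41 #1, and below the dotted line of FTH1 and HMOX1. Filled points were called, and TFRC and SLC39A14 are called lower and NCOA4 and FTH1 called higher with both hairpins, for FTH1 with shDDX41 #1 in 10 of 18 alternatives.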

How the data were processed

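The authors sequenced RNA from 9 libraries of MOLM13 cells, and the deposited table holds whole-number counts per gene. The submitters' processing notes name FastQC 0.11.7, HISAT2 2.0.5, featureCounts 1.5.2 and the builds hg38 and mm10, with no roles given. The labels name a stranded kit and the study's methods an unstranded one, so overlapping genes on opposite strands are uncertain. The annotation and the treatment of multiply mapped reads are not given in the sources used here. The analysis used edgeR 4.0.16 under R 4.3.3 (filterByExpr with a minimum count of 10, 12712 genes kept, TMM factors 0.963 to 1.02, 1 coefficient per group over all 9 libraries, quasi-likelihood test, two-sided, Benjamini-Hochberg adjustment within each of 3 contrasts). An SE is the log2 fold change divided by the square root of F. The biological coefficient of variation was 0.0768, so counting error exceeds it under 170 counts. For single values an exact permutation test of 3 against 3 cannot go below p = 0.1. The procedure was also run on simulated counts. Far fewer genes were changed in them than were called here, so that run does not test scaling or error rates under such broad change. Gene positions and exon lengths came from GENCODE v29 (GRCh38).

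The members and lists were chosen with earlier results of these data known, and the lists come from general knowledge. Named were all members, DDX41, 7 regulators, and per list and hairpin the 2 called genes with the largest rise and fall at 5 CPM or more. Similarity used centred log2 CPM with a prior count of 2. Alternatives were DESeq2 1.42.0, limma 3.58.1, other scalings and filters, only 6 libraries, a replicate block and each library left out.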

Additional observations from a re-analysis of the deposited data

How the results depend on the processing

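Over 27 member results (9 genes in 3 comparisons) and 18 alternatives, 438 of the recomputed values kept their direction and their side of the threshold, 15 lost a call, 16 gained one and 17 changed sign. The falls of SLC7A11, GCLM, TXNRD1 and SRXN1 with shDDX41 #1 and the rise of FTH1 with shDDX41 #2 were called under all 18. The values that changed sign were not called in either setting. Under upper quartile scaling they were NQO1 (0.0598) and GCLC (0.0455) with shDDX41 #1, and GCLM (0.00834), TXNRD1 (0.00571) and TXN (0.0175) with shDDX41 #2, where that scaling moved the median of all genes with shDDX41 #1 to 0.0875 (0.0119 under TMM) and with shDDX41 #2 to 0.0231 (-0.0109 under TMM). With 1 library left out, the log2 fold changes with shDDX41 #1 ranged from -0.32 to 0.28 for HMOX1, from -0.105 to 0.0816 for NQO1 and from -0.101 to 0.0154 for GCLC. With shDDX41 #2 they ranged from -0.42 to 0.19 for HMOX1, from -0.0758 to 0.0395 for GCLM, from -0.0513 to 0.00889 for TXNRD1 and from -0.0639 to 0.0539 for TXN, and between the hairpins from -0.0692 to 0.26 for HMOX1. The number of members called with shDDX41 #2 ranged from 1, without library D of that group, to 4, without sh-Control library A. GCLC between the hairpins was called under upper quartile scaling only (0.19, adjusted p = 0.0444), and TXN without the filter, at -0.21 with shDDX41 #1 (adjusted p = 0.0302) and -0.20 between the hairpins (adjusted p = 0.0383). Where no construction of the alternative shows it, the cause was not tested.

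The replicate letters were shared between groups, and the correlation of the deviations of same-letter libraries was -0.06 to 0.24 over 9 pairs, with 2 over 0.1. Between sh-Control and shDDX41 #1 the 3 same-letter pairs (0.07 to 0.24) exceeded the 6 others (-0.18 to 0.07), a hint from the data and not the design, whereas the 6 same-letter pairs with shDDX41 #2 gave -0.06 to 0.02. With the replicate block, 6351, 3570 and 6503 genes were called against 6078, 3174 and 6204 without it, members called were 6, 3 and 6 against 5, 3 and 4, and other pathway genes called were 45, 29 and 49 against 44, 24 and 46. The block called TXN with shDDX41 #1 (adjusted p = 0.0345) and, between the hairpins, TXN (adjusted p = 0.0419) and FTH1 (adjusted p = 0.0286).

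Counts were under 170 in at least 1 library for genes that include DDX41, HMOX1, SLC7A11, MAFF, CHAC2, SESN3, TRIM16L, ABHD4 and FLVCR1, so counting error limits them. Of the other genes named, 24 of 27 calls with shDDX41 #1, 15 of 23 with shDDX41 #2 and 26 of 31 between the hairpins held in every alternative, a check chosen after seeing the data.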
